A study of Sus scrofa with 6 samples.

Results

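The genes described here move membrane and cargo between the compartments of the cell. They were taken by name from a table of gene records in pig longissimus muscle (Sus scrofa, the long muscle of the back): every record called RAB, VPS, SNX, SEC, STX, VAMP or SNAP with a number, Arf GTPases 1 to 6, ARFGAP, the coatomer subunits named COPA, COPB, COPG, COPZ or COPE, and the subunits of the adaptor complexes AP-1 to AP-4. The rule took 119 of 7661 records, with 118 symbols, since VPS54 stands on 2 records. RNA sequencing compared 3 pigs with high and 3 pigs with low intramuscular fat, the fat deposited inside the muscle. Muscle was taken fresh and no treatment is named. The labels name no breed, sex, age or kinship of the pigs, and p-values measure the spread between these 6 samples.

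Transport vesicles form when small GTPases of the Arf and Sar families recruit a coat: COPII for cargo leaving the endoplasmic reticulum, COPI for return from the Golgi, and clathrin with adaptor complexes at the Golgi, endosomes and cell surface. Rab GTPases then give each compartment its identity, tethers such as HOPS, CORVET and GARP catch the incoming vesicle, and SNARE proteins fuse the membranes. On endosomes, ESCRT proteins send cargo to lysosomes, whereas retromer and sorting nexins return it to the Golgi or the surface. In skeletal muscle the same machinery brings the glucose transporter GLUT4 to the surface after insulin or contraction, and it serves autophagy and the upkeep of lysosomes.

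The libraries held between 25371989 and 34813172 reads, and the trafficking records took between 0.463% and 0.524% of them. The lowest count of any of these records in a library was 154 reads, well above the counts at which detection becomes uncertain. The table lists only genes above 10 CPM (read counts scaled to a common library size of 1e+06 reads) in at least 3 libraries, so a family member that is not listed may still be expressed. A gene under that limit throughout 1 group is listed only when the other group lies above it. For such genes the limit favours a difference in that direction. Of the muscle fibre markers looked for, 9 had a record, with summed levels of 114214 to 126944 CPM in the high and 107190 to 120186 CPM in the low libraries. Fat cell markers summed to 702 to 1075 CPM in the high and 203 to 312 CPM in the low libraries, with 8 of 9 records above 0 in log2 fold change. In the high libraries much of that sum was SCD, at 622, 328 and 479 against 20.6, 25.5 and 38.8 CPM. Of the 9 records 6 were higher without overlap, PLIN4 and LIPE overlapped, and AQP7 was lower without overlap (-0.66). PLIN1, CIDE-C, CIDEA and 1 THRSP record lay under 10 CPM in all low libraries. Fibroblast markers summed to 3628 to 4768 CPM in the high and 1569 to 3198 CPM in the low libraries, with 13 of 13 records above 0. Nerve markers were represented by S100B alone, whereas endothelial and smooth muscle markers had medians of 0.12 and -0.00055 and macrophage markers -0.10. In these medians PDGFRB, NOTCH3 and C1QB each counted with more than 1 record. Higher without overlap were VWF (1 of 6 endothelial records), MYH11, RGS5 and ACTA2 (3 of 9 smooth muscle) and CSF1R (1 of 6 macrophage). In these lists 0 records were lower without overlap. Over all records 13.5% were higher and 13.3% lower without overlap. In whole muscle, more cells of a type and more RNA per cell cannot be told apart, and the part of fat and connective tissue cells in the values below was not tested.

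No trafficking record passed the test between the groups. At an adjusted p under 0.05 in edgeR's quasi-likelihood test 0 of 119 records were called, against 11 of all 7661 (0.144%). At an unadjusted p under 0.05 there were 14 (7 higher and 7 lower in the high group), or 11.8% of the records where the whole table had 18.7% (10.3% higher and 8.41% lower). The 3 high and 3 low libraries did not overlap in 31 records (26.1%), a share close to the 26.8% of all records, so it is no result about trafficking genes. Of these 15 were higher and 16 lower, where 13.5% and 13.3% of all records were. The median log2 fold change (high minus low) was 0.026 against -0.036 over all records, and 69 records lay above 0 and 50 below (45.2% and 54.8% of all records). Other tests called few: DESeq2 3 (6.76% of all records), edgeR's exact test and the authors' false discovery rate 2 each (4.12%), and limma-voom 0 (0.104%). The exact test and the authors' false discovery rate gave nearly the same values, so they are not separate results. The split without overlap depended on the scaling: it was 10 higher and 20 lower with upper-quartile factors.

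The data also bound how large a difference could be. For 112 of 119 records (94.1%) the 95% confidence interval of the log2 fold change lay within 2-fold in either direction, where 83.7% of all records did so. For 85 (71.4%) it lay within 1.5-fold, against 44.7% of all records. Point estimates under 1.2-fold were found for 92 records (77.3%), against 59.7% of all records. The 7 intervals that reached past 2-fold belonged to SNX21, SNX25, SNX11, SEC24D, VPS13A, VPS13D and SNAP23. Estimates above 1.5-fold were those of SNX25, SNX21 and SEC24D (2.52% of the trafficking records, against 10.4% of all records). The median within-group SD was 0.15 on the log2 scale for trafficking records and 0.20 for all records.

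**Figure D1:**
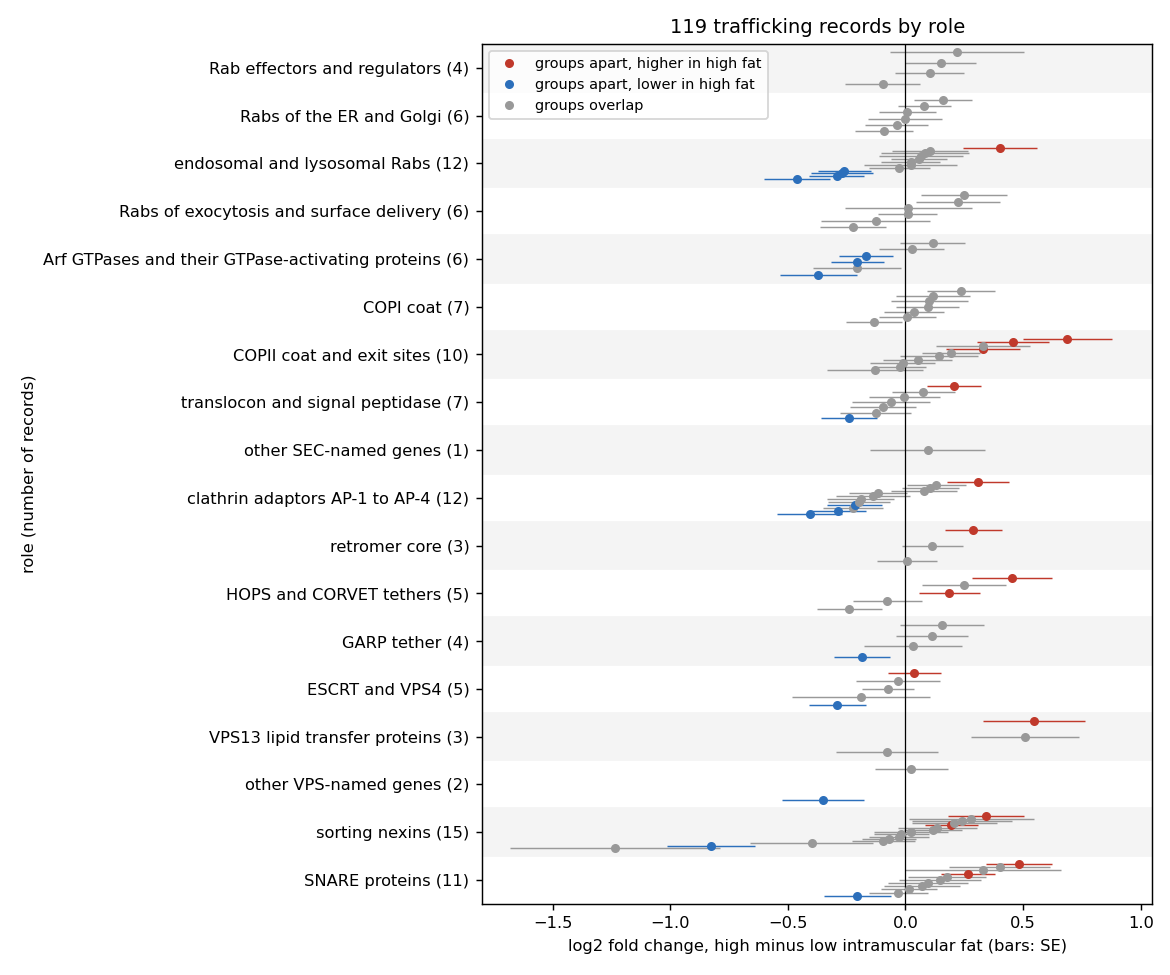
Log2 fold change (high minus low intramuscular fat, horizontal axis) of the 119 trafficking records, grouped by role on the vertical axis, with the number of records in brackets. Points are estimates, bars are standard errors, and colour shows whether the 3 high and 3 low libraries overlap; most points lie within 0.5 of 0, and SNX25 is the lowest at -1.24.

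The COPII coat, which packs newly made proteins for export from the endoplasmic reticulum, had 10 records with a median of 0.17. Of these 7 were above 0, where 45.2% of all records were. Their median genomic span was 56.4 kb, against 21.7 kb for all records, and direction went with span, as given below. The 4 genes of its cargo-selecting SEC24 proteins did not all lean one way. SEC24D (ENSSSCG00000009112, chromosome 8, 112598496 to 112703271) stood at 11.7, 14.4 and 14.8 CPM in the high libraries and 8.19, 7.01 and 10.2 CPM in the low libraries. Every high library lay above every low library, a mean of 13.6 ± 1.68 against 8.46 ± 1.60 CPM (SD, n = 3 per group). Among the 119 records it had the highest log2 fold change (0.69, SE 0.19, adjusted p = 0.148). DESeq2 called it (adjusted p = 0.0214). In the deposited CPM, before the scaling used here, all its low libraries lay under the limit of 10 CPM. SEC24D was therefore listed through its high libraries alone, and the limit favoured that direction. SEC24A stood at 36, 40.7 and 33.3 CPM in the high libraries and 30.6, 27 and 22.5 CPM in the low libraries. These groups did not overlap either, and SEC24A was next in size within the coat (0.46, SE 0.15, adjusted p = 0.196). SEC24B had 31.7, 35.9 and 37.4 against 29.2, 31.5 and 22.7 CPM in high and low libraries 1 to 3, again without overlap but with high library 1 next to low library 2 (0.33, SE 0.16, adjusted p = 0.305; 0.21 without low library 3). The fourth paralog, SEC24C, was level at 53.7, 55.5 and 54.5 against 57.3, 56.2 and 52.9 CPM (-0.022, SE 0.11).

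Other COPII genes overlapped between the groups. SEC23A and SEC23B, which form the inner coat with SEC24, had 0.14 (SE 0.16) and -0.13 (SE 0.20). SEC31A, of the outer cage, stood at 90.1, 102 and 95.9 against 77.2, 91 and 83.2 CPM (0.19, SE 0.12, adjusted p = 0.416), its paralog SEC31B at -0.011, and SEC13, the cage partner of SEC31, at 0.052. SEC23IP, which binds SEC23 at exit sites, had 0.33 (SE 0.20). At the entry to the endoplasmic reticulum, 2 of the 7 translocon and signal peptidase records lay above 0 and 5 below (45.2% and 54.8% of all records). The median was -0.061, or 0.078 without low library 3. SEC63, which couples the translocon to the chaperone of the lumen, stood at 59.1, 58.6 and 59.1 against 52.1, 47 and 54.4 CPM and was higher without overlap (0.21, SE 0.12, adjusted p = 0.365). SEC11A, a catalytic subunit of signal peptidase, was lower without overlap at 17.3, 16 and 16.9 against 19, 19.8 and 20.5 CPM (-0.24, SE 0.12, adjusted p = 0.321). The channel subunits SEC61A1, SEC61A2, SEC61B and SEC61G lay between -0.13 and 0.076.

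Within the COPI coat, which returns proteins from the Golgi to the endoplasmic reticulum, 6 of 7 records were above 0 (45.2% of all records), none without overlap. The median was 0.094, or 0.0031 without low library 3 and 0.18 without low library 1. The alpha subunit COPA stood at 99.3, 88 and 87.9 against 98.6, 85.7 and 69.4 CPM (0.12, SE 0.16, adjusted p = 0.702), or at -0.0012 without low library 3. Among these 7, COPB1, the beta subunit, had the largest estimate (0.24, SE 0.15, adjusted p = 0.406), and COPZ1, the zeta subunit, was the record below 0 (-0.13, SE 0.12). A record of the subunit COPE, without a deposited symbol and so outside the 7, had -0.30. Arf GTPases recruit this coat and clathrin adaptors. Of 6 records of Arfs and their GTPase-activating proteins 4 were below 0, as were 54.8% of all records. Of these 3 did not overlap, where 13.3% of all records were lower without overlap. Their median was -0.19, or -0.090 without low library 3. ARF6, the Arf of the cell surface, stood at 8.56, 10.1 and 8.23 CPM in the high libraries and 10.2, 12.7 and 11.9 CPM in the low libraries. The highest high library lay just under the lowest low library (-0.37, SE 0.16, adjusted p = 0.279). ARF1, the main Arf of the Golgi, had 194, 183 and 189 against 216, 217 and 218 CPM, a narrow spread in both groups and no overlap (-0.20, SE 0.11, adjusted p = 0.360). ARFGAP2, which switches ARF1 off on COPI vesicles, was lower without overlap as well (-0.17, SE 0.11, adjusted p = 0.453), whereas ARF5 overlapped at -0.21 and ARFGAP3 and ARF4 had 0.12 and 0.027.

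Rab GTPases showed small differences in each class. The 6 Rabs of the endoplasmic reticulum and Golgi lay between -0.090 and 0.16, with no group apart. RAB6A, of retrograde Golgi traffic, was the upper one of these at 107, 106 and 99.2 against 99.5, 96.3 and 84.2 CPM (0.16, SE 0.12, adjusted p = 0.498). Of 12 endosomal and lysosomal Rabs, 7 were above 0 and 5 below (45.2% and 54.8% of all records). Without overlap 1 was higher and 4 lower, beside 13.5% and 13.3% of all records. The median was 0.022, or between -0.025 and 0.048 with a library left out. RAB14, which links endosomes with the Golgi and takes part in GLUT4 traffic, stood at 39, 34.7 and 31.1 CPM in the high libraries and 22.5, 30.8 and 26 CPM in the low libraries. Low library 2 came within 1 CPM of high library 3 (0.40, SE 0.16, adjusted p = 0.240).

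The lower endosomal Rabs came from several steps of the pathway. RAB24, a Rab of autophagy, stood at 13, 11.1 and 12.4 CPM in the high libraries and 16.5, 18.2 and 15.5 CPM in the low libraries, with a gap of more than 2 CPM between the groups (ENSSSCG00000014043, chromosome 2, 82220164 to 82222343; -0.46 (SE 0.14, adjusted p = 0.164)). RAB11B, of recycling endosomes, had 49.6, 44.6 and 49.9 against 61.9, 58.5 and 56 CPM (-0.29, SE 0.12, adjusted p = 0.243), while its paralog RAB11A had 0.058 (SE 0.12) and overlapped. RAB5C, of early endosomes, had 35.1, 37.2 and 38.2 against 44, 42.1 and 46.3 CPM (-0.26, SE 0.11, adjusted p = 0.274). Its paralogs RAB5A and RAB5B overlapped between the groups, at 0.083 (SE 0.19) and 0.022 (SE 0.13). RAB7A, which brings late endosomes to lysosomes, stood at 160.3, 148 and 167 against 171, 194 and 209 CPM. Its high libraries all lay below its low libraries, by 3 CPM at the nearest (-0.27, SE 0.13, adjusted p = 0.311; -0.20 without low library 3).

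Among Rabs of surface delivery, RAB10, which carries GLUT4 vesicles to the plasma membrane in fat cells, was level at 215, 194 and 212 against 216, 215 and 187 CPM (0.0088, SE 0.13, adjusted p = 0.975). RAB8A and RAB13, Rabs of GLUT4 delivery in muscle, are not analysed here. RAB8B, a paralog of RAB8A, had 41.3, 52.8 and 34.1 against 40.6, 33 and 34.2 CPM (0.25, SE 0.18, adjusted p = 0.477). High library 2 was well above the rest, and the estimate was 0.069 without it. RAB28, RAB35, RAB23 and RAB3A lay between -0.22 and 0.22. The Rab regulators showed no group apart. RAB3GAP2, a subunit of the complex that activates RAB18, had 0.15 (SE 0.15), its partner RAB3GAP1 0.10 (SE 0.15) and the RAB11 effector RAB11FIP2 0.22 (SE 0.28), which became 0.61 without low library 1 and -0.00076 without low library 3.

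Of 12 adaptor records, 8 were below 0, where 54.8% of all records were. Without overlap 1 was higher and 3 lower, beside 13.5% and 13.3% of all records. The median was -0.16, or -0.079 without low library 2. AP4B1, of the AP-4 complex that exports the autophagy protein ATG9 from the Golgi, had the lowest estimate of these at 20.1, 21.5 and 19.3 CPM in the high libraries and 27, 30.3 and 23.4 CPM in the low libraries (-0.41, SE 0.14, adjusted p = 0.197). Subunits of AP-2, the adaptor of clathrin endocytosis at the cell surface, did not all lean the same way. AP2S1, its small subunit, was lower at 24.1, 21.8 and 23 against 27.5, 27 and 29.5 CPM (-0.29, SE 0.12, adjusted p = 0.249). Of the pair of alternative large alpha subunits, AP2A1 was lower at 51.2, 52.5 and 50.4 against 54.3, 62.2 and 62.6 CPM (-0.22, SE 0.12, adjusted p = 0.352) and AP2A2 higher at 28.8, 35 and 35.6 against 25.6, 26.8 and 28.1 CPM (0.31, SE 0.13, adjusted p = 0.268), both without overlap. The cargo-binding AP2M1 had 106, 92 and 96.7 against 117, 104 and 122 CPM with overlap (-0.22, SE 0.13, adjusted p = 0.368). AP2B1 stood at 137, 138 and 132 against 147, 109 and 129 CPM (0.079, SE 0.14), and low libraries 1 and 2 lay on either side of all high libraries. A further AP2B1 record and a record of AP3B1, without a deposited symbol and so outside the 12, had 0.37 and 0.40.

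**Figure D2:**
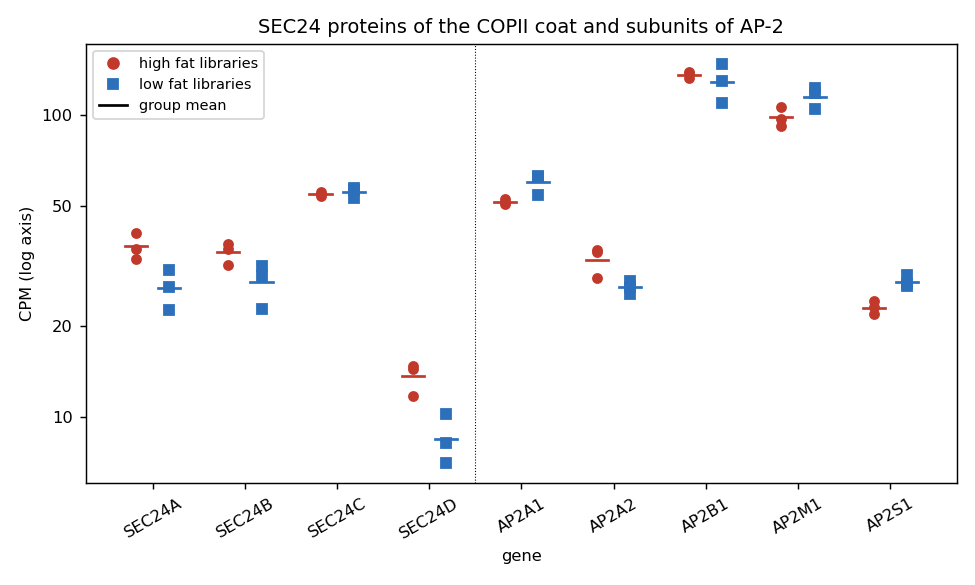
CPM per library (vertical log axis) of the 4 SEC24 genes of the COPII coat and of 5 AP-2 subunit genes, with high libraries as circles, low libraries as squares and group means as lines; levels can be compared within a gene only, since no transcript lengths were used. SEC24A, SEC24B and SEC24D lie higher in the high group and SEC24C is level, and AP2A1 and AP2A2 lean in opposite directions.

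The 3 retromer core genes, whose proteins pick cargo for return from endosomes, were above 0, as were 45.2% of all records. Their median was 0.11, or 0.22 without low library 1. VPS26A stood at 53.3, 51.5 and 61.2 CPM in the high libraries and 45.7, 45.2 and 45 CPM in the low libraries; all high libraries were above 50 CPM and all low libraries below 46 CPM (0.29, SE 0.12, adjusted p = 0.255). VPS35, the scaffold, overlapped at 45.9, 48.6 and 48.1 against 49.2, 44 and 38.7 CPM (0.11, SE 0.13, adjusted p = 0.653), and VPS29 had 0.0076 (SE 0.13). SNX27, which joins retromer to receptors bound for the surface, GLUT4 among them, had 14.2, 15.5 and 13.6 against 12.7, 12 and 9.40 CPM without overlap (0.34, SE 0.16, adjusted p = 0.302). SNX3, another cargo adaptor of retromer, was level (-0.070, SE 0.11).

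Sorting nexins carried the lowest estimates among the 119 records. SNX21 (ENSSSCG00000007425, chromosome 17, 53679781 to 53685699), an endosomal protein with a phosphoinositide-binding PX domain, stood at 10.5, 7.60 and 8.47 CPM in the high libraries and 18.4, 15.1 and 13.6 CPM in the low libraries. No library overlapped: the mean was 8.86 ± 1.48 against 15.7 ± 2.43 CPM (SD, n = 3 per group), which is -0.83 (SE 0.19, adjusted p = 0.112) on the log2 scale. The call depended on the test, as DESeq2 gave adjusted p = 0.00431 and the authors' deposited table a false discovery rate of 0.0254. The deposited fold change, turned to high over low, was -0.83 on the log2 scale, and SNX21 is not on the authors' list of changed genes.

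SNX25 (ENSSSCG00000015789, chromosome 15, 53105367 to 53186182), a PX-domain protein that promotes breakdown of TGF-beta receptors, is the 1 trafficking record on that list, with -1.24 on the log2 scale and a false discovery rate of 0.0371 in the authors' deposited table. It stood at 13.4, 22.1 and 11.4 CPM in the high libraries and 19.7, 27.6 and 63.3 CPM in the low libraries. Low library 3 was more than 2 times any other library, and high library 2 lay above low library 1, so the groups overlapped. The quasi-likelihood estimate was -1.24 (SE 0.45, adjusted p = 0.216), and it was -0.59 without low library 3. The other 13 sorting nexins lay between -0.40 (SNX11) and 0.34 (SNX27). SNX2, of the SNX-BAR coat that tubulates endosomes, was higher without overlap (0.19, SE 0.11, adjusted p = 0.380), and its partners SNX1 and SNX5 were level (-0.028 and 0.026). SNX14, a tether of the endoplasmic reticulum at lipid droplets, overlapped at 40.9, 41.1 and 43.6 against 45.8, 38.3 and 30.1 CPM (0.14, SE 0.17, adjusted p = 0.673).

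**Figure D3:**
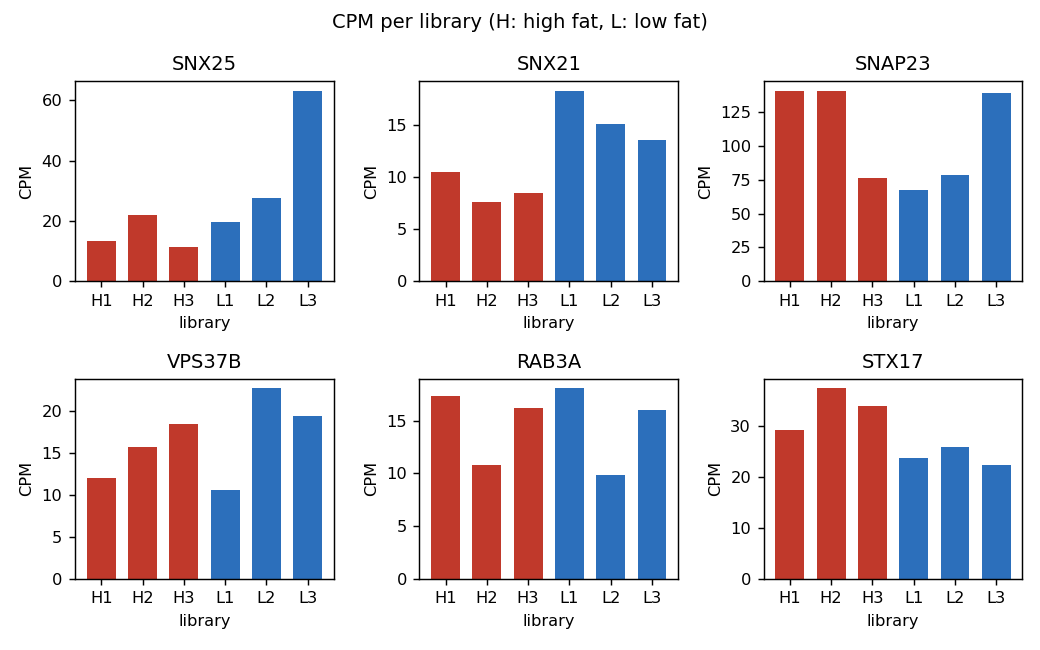
CPM in each library (bars from 0, high libraries H1 to H3 and low libraries L1 to L3) for SNX25, SNX21, SNAP23, VPS37B, RAB3A and STX17. Low library 3 stands alone for SNX25 at 63.3 CPM, SNAP23 has a high and a low level within both groups, and SNX21 and STX17 separate the groups.

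Tethers and lysosome-directed sorting gave a mixed picture. VPS8, the subunit that marks the CORVET tether of early endosomes, had 29, 25.6 and 26.1 against 24, 19 and 15.9 CPM without overlap (0.45, SE 0.17, adjusted p = 0.227). VPS41, its counterpart in the HOPS tether of lysosomes, was higher without overlap by less (0.19, SE 0.13, adjusted p = 0.460; -0.077 with the trend with gene span, given below, removed), while VPS16, VPS33A and VPS39, which these tethers share or which belong to HOPS, overlapped at -0.24, 0.25 and -0.077. In the GARP tether of the Golgi, VPS52 was lower without overlap (-0.18, SE 0.12, adjusted p = 0.427). VPS53 had 0.11, and the records of VPS54, which may share reads, had 0.16 and 0.032. VPS28, of ESCRT-I, which takes up ubiquitin-tagged cargo, stood at 27.5, 24.6 and 24.2 against 30.2, 29.97 and 33.1 CPM (-0.29, SE 0.12, adjusted p = 0.255) and was lower without overlap. VPS37A, another ESCRT-I subunit, was higher without overlap by 0.038 only, from 20.4 to 21.4 CPM over all 6 libraries. VPS4A, the ATPase that takes ESCRT apart, had -0.073 (SE 0.11).

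The VPS13 proteins, long bridges that pass lipid between membranes, included the pair with the longest genes of the set. VPS13A (ENSSSCG00000005282, chromosome 1, 256783358 to 257095026) stood at 90.7, 69.3 and 59.6 CPM in the high libraries and 54.2, 58.5 and 37.7 CPM in the low libraries. High library 3 and low library 2 were close, at 59.6 and 58.5 CPM (0.55, SE 0.22, adjusted p = 0.243). VPS13D had 40.6, 33.3 and 39.8 against 33.4, 28.7 and 17.8 CPM with overlap (0.51, SE 0.23, adjusted p = 0.288), and VPS13C had -0.079 (SE 0.22). VPS45, a regulator of SNARE proteins, was level at 0.025. VPS72 carries a VPS name but encodes a chromatin protein that handles histone H2A.Z; it stood at 89.9, 81.3 and 89.8 against 95.6, 97.2 and 139.8 CPM (-0.35, SE 0.17, adjusted p = 0.321), or at -0.14 without low library 3. SEC14L1, a relative of a yeast lipid transfer protein, had 0.094 (SE 0.24).

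SNARE genes were above 0 in 9 of 11 records, where 45.2% of all records were (median 0.15, or 0.071 without high library 2). Without overlap 2 were higher and 1 lower, beside 13.5% and 13.3% of all records. The median span of the class was 41.5 kb, against 21.7 kb for all records, and direction went with span, as given below. STX17 (ENSSSCG00000005386, chromosome 1, 269898456 to 270003564), the syntaxin of autophagosome fusion with lysosomes, stood at 29.3, 37.5 and 33.9 CPM in the high libraries and 23.8, 25.9 and 22.4 CPM in the low libraries. High libraries began more than 3 CPM above the low ones, with a mean of 33.6 ± 4.12 against 24 ± 1.76 CPM (SD, n = 3 per group) and 0.48 (SE 0.14, adjusted p = 0.157) on the log2 scale; DESeq2 called it at adjusted p = 0.0470. VAMP7, of late endosomes and lysosomes, had 24.6, 25.3 and 27.3 against 22, 21.2 and 21 CPM without overlap (0.27, SE 0.12, adjusted p = 0.272). STX4, the plasma membrane syntaxin that receives GLUT4 vesicles, was lower without overlap at 10.7, 11.7 and 12 against 12.2, 13 and 14.5 CPM (-0.21, SE 0.14, adjusted p = 0.456). Its partner SNAP23 stood at 141, 141 and 76.2 CPM in the high libraries and 67.3, 79 and 139 CPM in the low libraries. Both groups held values near 140 CPM and values below 80 CPM, and the spread within each group exceeded the difference between them (0.33, SE 0.33, adjusted p = 0.611). VAMP2, the vesicle SNARE of this complex, is not analysed here. VAMP3, VAMP8, STX6, STX7, STX12, STX16 and SNAP47 overlapped, between -0.030 and 0.40.

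**Figure D4:**
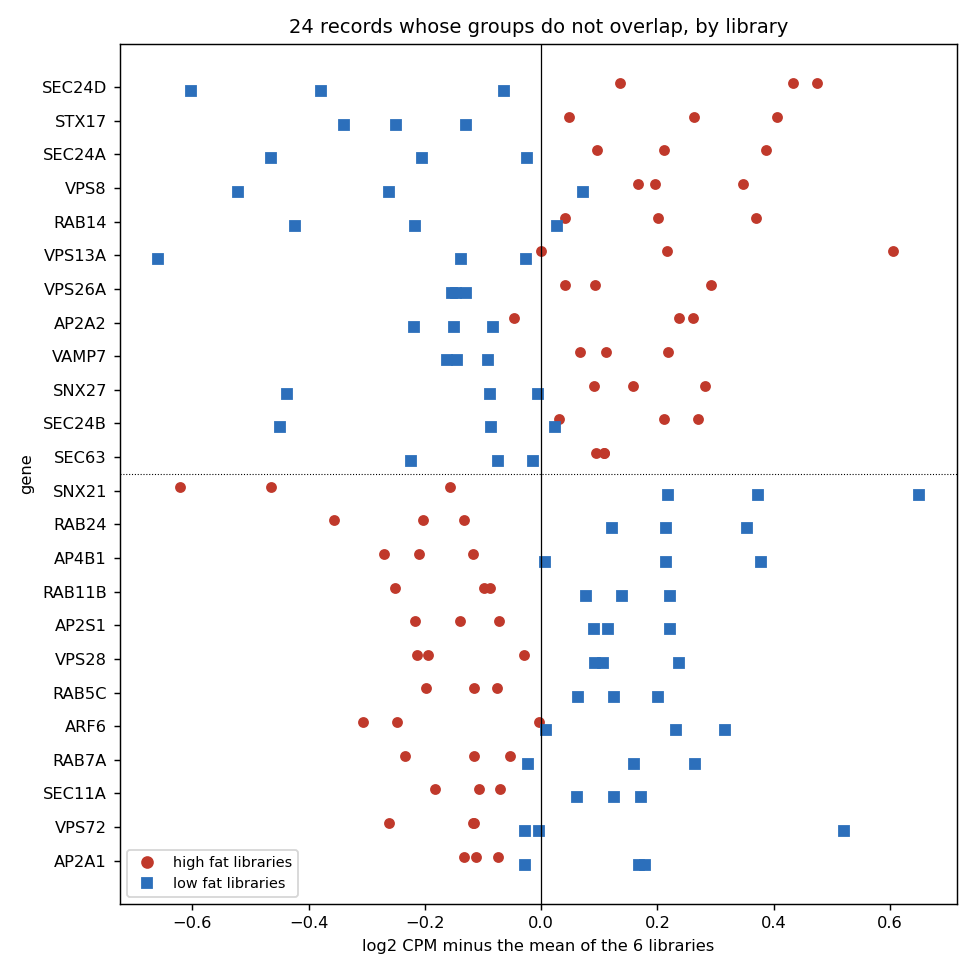
Log2 CPM of each library minus the mean of the 6 libraries (horizontal axis) for the 12 records with the smallest p among those higher, above the dotted line, and the 12 among those lower in the high group without overlap. Circles are high and squares low libraries; the gap between the groups is narrow for RAB14, SEC24B and ARF6 and wider for SNX21 and RAB24.

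The direction of a record went with the length of its gene. Over the 119 records, log2 fold change and genomic span (start to end of the record, introns included) had Spearman's rho of 0.630, against 0.407 over all 7661, a description across genes of the same 6 libraries. The records were split into 3 nearly equal sets by span. In the set with the longest genes (44.8 to 326 kb) 36 of 40 records were above 0, where 70.1% of all records of that span were. Of these 40, 12 were higher and 0 lower without overlap, beside 25.7% and 4.35% of all records of that span. In the set with the shortest genes (0.528 to 18.4 kb) 11 of 40 were above 0 and 29 below, where 27% of all records of that span were above 0. Among them 0 were higher and 12 lower without overlap, beside 6% and 20.9% of all records of that span. SEC24D (105 kb), STX17 (105 kb), VPS8 (177 kb) and VPS13A (312 kb) are long genes, and ARF6 (0.528 kb), RAB24 (2.18 kb) and SNX21 (5.92 kb) short ones. SNX25 (80.8 kb) was an exception, a long gene with the lowest estimate.

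The whole table followed the same trend. Median log2 fold changes of all records within those limits of span were 0.15 for long and -0.14 for short genes, beside 0.15 and -0.095 for the trafficking records. The medians of the set of longest genes, as log2 deviation from the 6-library mean, were 0.061, 0.16 and 0.040 in the high and -0.0086, -0.055 and -0.17 in the low libraries. Low library 3 was farthest from the mean, and low library 1 was nearest to it. With the trend of each library with span removed, rho was 0.048, 20 records were without overlap (5 higher, 15 lower), beside 22.9% of all records. Of the 31 that did not overlap before, 15 were again without overlap on the same side. SNX21 then had -0.71 (adjusted p = 0.187), RAB11B -0.35, RAB14 0.38, SEC24D 0.46, STX17 0.26, VPS13A 0.24 and VPS8 0.20. SNX25 had -1.46 (adjusted p = 0.223) and its groups no longer overlapped. SEC24A had 0.29, SEC24B 0.15, SEC63 0.016, SNX27 0.15, SNX2 0.044, AP2A2 0.19 and VAMP7 0.13; of these only SEC24A and VAMP7 still had groups that did not overlap. On the lower side AP2S1 had -0.17 and VPS28 -0.16, both without overlap, whereas RAB7A (-0.14), STX4 (-0.10), VPS52 (-0.11) and ARFGAP2 (-0.072) overlapped. Groups of AP4B1, ARF6, SEC24D, VPS8, VPS13A and VPS37A overlapped as well. What gives the trend with span was not tested.

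**Figure D5:**
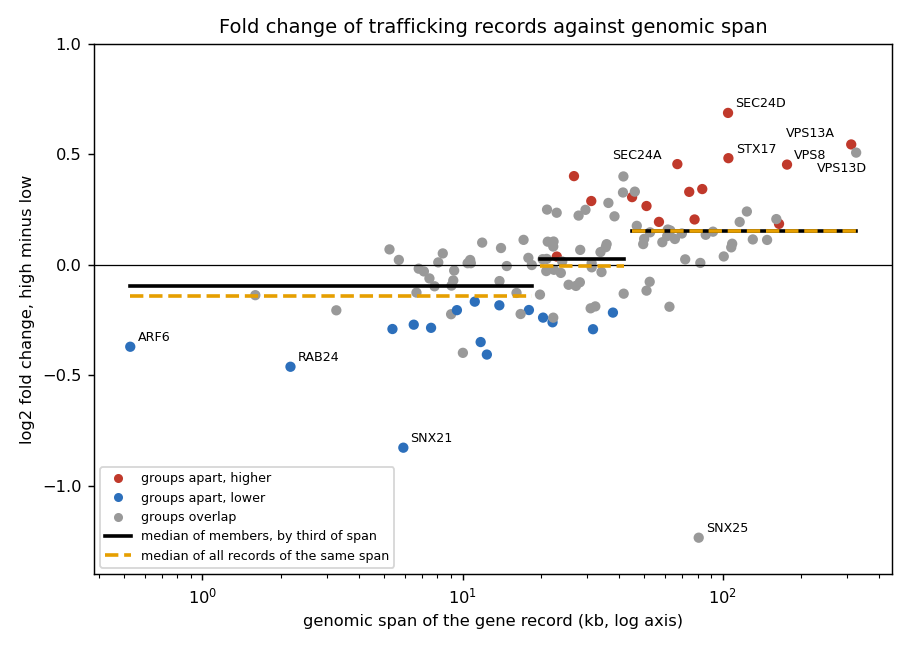
Log2 fold change (high minus low, vertical axis) of the 119 trafficking records against genomic span in kb (horizontal log axis), coloured by overlap of the groups. Solid lines are medians of the records in each of the 3 sets by span and dashed lines medians of all records of the same span; most long genes lie above 0 and most short genes below, with SNX25 at -1.24 as an exception.

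Ratios between close paralogs within a library do not depend on the scaling of the libraries. Of 24 pairs compared, 7 had groups that did not overlap, 29.2% of the pairs and near the 26.8% of single records, so the count is no result about the pairs. The pairs were chosen after the values were seen. Each of the 7 had an exact permutation p = 0.1 (two-sided), the smallest that 3 against 3 libraries can give, and adjusted p = 0.343. The log2 ratio of SEC24C to SEC24D was 2.01 ± 0.17 for high against 2.73 ± 0.32 for low libraries (SD, n = 3 per group). For AP2A1 to AP2A2 it was 0.64 ± 0.17 against 1.15 ± 0.064, so each high library had less AP2A1 per AP2A2 than any low library. RAB11A to RAB11B had 0.48 ± 0.12 against 0.13 ± 0.17. These records span 33.9 and 31.7 kb, beside 22.4 and 105 kb for SEC24C and SEC24D. The part of span in the ratios was not tested. The pairs SEC24A and SEC24C, SEC24B and SEC24C, RAB5B and RAB5C, and SEC11A and SEC11C were the other 4, with differences between the groups of 0.48, 0.36, 0.28 and -0.24 on the log2 scale. In contrast, COPG to COPG2 differed by -0.023 and RAB3GAP1 to RAB3GAP2 by -0.063.

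Partners of this machinery that carry other names were represented by 177 records of 172 genes, of 269 listed. Of these 1 passed the test, the sorting receptor SORL1, at 12, 11.6 and 10.7 against 2.87, 2.20 and 2.33 CPM. Its log2 fold change was 2.21 (SE 0.19, adjusted p = 0.00707), with adjusted p from edgeR's quasi-likelihood test. All its low libraries lay under 10 CPM, so SORL1 was listed through its high libraries alone, and the limit favoured that direction. Unadjusted p was under 0.05 for 21 higher and 6 lower records, beside 10.3% and 8.41% of the whole table, and the median was 0.036. In the clathrin and dynamin list 8 of 22 records were higher at an unadjusted p under 0.05 and 0 lower (median 0.25). Its median span was 57.1 kb against 21.7 kb for all records. PICALM, a clathrin assembly protein, had 63.7, 84.4 and 78.7 against 44.7, 46.9 and 39.5 CPM on 1 record (0.79, SE 0.15, adjusted p = 0.0936) and 0.56 on the other, and FCHO2, which starts clathrin pits, had 50.4, 49.1 and 47.5 against 35.2, 33.4 and 28.3 CPM (0.60, SE 0.13, adjusted p = 0.108).

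Of 46 records of Rab and Arf regulators, 29 were above 0 and 17 below (45.2% and 54.8% of all records), with a median of 0.11. Among the 46, 12 were higher and 4 lower without overlap, beside 13.5% and 13.3% of all records. Their median span was 54.7 kb, against 21.7 kb for all records. DENND4A, which switches on RAB10, stood at 26.4, 32.2 and 28.9 against 18.2, 14.9 and 15.5 CPM (0.84, SE 0.14, adjusted p = 0.0776). TBC1D1, which holds GLUT4 vesicles back by switching Rabs off, stood at 14.5, 14.2 and 15.5 against 31.3, 34 and 20.3 CPM and so lower without overlap (-0.95, SE 0.20, adjusted p = 0.107). RALGAPA1, of the complex that restrains RAL GTPases in GLUT4 delivery, had 17.6, 20.7 and 14.7 against 12.1, 8.41 and 5.30 CPM (1.04, SE 0.29, adjusted p = 0.153). DESeq2 called these 3 and 8 more of the 177, beside 6.76% of all records. EXOC4, of the exocyst tether, had 0.44 and EXOC5 0.43. Among Golgi tethers USO1 had 0.33 and COG1 -0.30. HOOK3 and COMMD10, of endosome transport and recycling, had 0.90 and 0.52. STXBP5 and VTI1B, of the SNARE machinery, had 0.60 and -0.31. The ESCRT genes CHMP1A and UBAP1 had -0.31 and -0.36, and the cargo receptor TMED9 -0.36. None of these passed (adjusted p between 0.167 and 0.340). As with SORL1, all low libraries of EXOC4 and HOOK3 lay under 10 CPM, so both were listed through their high libraries alone.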

How the data were processed

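Raw read counts per Ensembl gene record, which are whole numbers, and CPM were deposited by the authors for 6 libraries. TopHat2 2.0.4, BWA 0.6.2, Trimmomatic 0.22 and FastQC 0.10.1 are named, with no role, per the submitters' processing notes. Not given in the sources used here are the read counter, strand setting, genome build and annotation; coordinates are printed as deposited. The authors' deposited log2 fold changes, p-values and false discovery rates run low over high and were turned round. Library sizes were the totals by which the authors divided.

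All 7661 records were fitted together in edgeR 4.0.16 (R 4.3.3; TMM, filterByExpr, quasi-likelihood F-test, Benjamini-Hochberg adjustment, threshold 0.05). Adjusted p-values are from that test unless another is named. It was tested on simulated data with known changes. These were 2-fold or larger, with the same relative spread set for all genes, so recovery of smaller changes was not tested. CPM are TMM-normalised. DESeq2 1.42.0, limma 3.58.1 and other alternatives are given at the end. Members were classed by name, and 45 records were named: members past the threshold, the authors' list, the 12 per direction with the smallest p and no overlap, 2 per role, and 12 genes in any case, of which 9 had a record. Others were named for context after their values were seen. The members, lists and tests were chosen with earlier results of these data known, and the paralog pairs and sets by span after the values were seen.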

Additional observations from a re-analysis of the deposited data

How the results depend on the processing

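The count of 0 called trafficking records was kept with other scaling factors, filters, limma-voom, the older quasi-likelihood method (chosen after seeing the data), removal of mitochondrial genes or the span trend, a threshold of 0.1 and each library left out. DESeq2 called 3 (SEC24D, STX17, SNX21) and edgeR's exact test 2 (SNX21, SNX25). Of all records 11 became 518 in DESeq2, 316 in the exact test and 82 at a threshold of 0.1. Of the other trafficking genes 1 became 11, 7 and 3, and 0 at a mean CPM of at least 20. Leaving out each library gave 1 (low 2) to 30 (low 1) calls over all records, being 6, 2 and 7 without high 1, 2 and 3, and 0 to 2 of the other trafficking genes. The median log2 fold change of the trafficking members moved from 0.026 to 0.0095 with upper-quartile factors, 0.072 at a mean CPM of at least 20 (79 records), -0.0034 with the span trend removed, and 0.021 to 0.046 with a library left out. Records higher without overlap numbered 15, or 5 with the span trend removed and 16 to 39 with a library left out; 39 was without low library 1, where 3288 of 7661 records did not overlap, and fewer libraries overlap less often by construction. The rank correlation of log2 fold change with span was 0.048 with the trend removed and 0.467 (without low library 3) to 0.649 with a library left out. With that trend removed SEC31A, AP2B1, SNX3, VPS41, VPS4A, RAB3GAP2, RAB10, COPA and SEC14L1 among the named genes changed sign, none past the threshold, as did the medians of the HOPS and CORVET, GARP, translocon, ER and Golgi Rab and Rab regulator classes. With the replicate number as a block the calls were 2 over all records, 0 of the trafficking records and 0 of the other trafficking genes. Same-numbered libraries deviated with correlations of 0.12, 0.030 and -0.083 over all records, and 0.31, 0.15 and -0.15 over the trafficking records. High library 2 went better with low library 3 (0.15 and 0.20). As deviations from a mean of 3 libraries are tied to each other, these values cannot show or exclude pairing. The labels name no pairing, and the numbers were not taken as pairs. Depth limited no member.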

Other observations

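Some trafficking genes varied more among pigs of a group than between the groups. After SNX25 and SNAP23, the widest within-group spread was that of VPS37B, a subunit of ESCRT-I, at 12, 15.7 and 18.5 CPM in the high libraries and 10.6, 22.7 and 19.4 CPM in the low libraries, and of RAB3A, a Rab of regulated secretion, at 17.4, 10.8 and 16.2 CPM in the high libraries and 18.1, 9.83 and 16 CPM in the low libraries. RAB3A was lowest in high library 2 and low library 2. SEC14L1 had 26.1, 39.6 and 27.7 against 21.7, 37.8 and 28 CPM, and in both groups library 2 held the highest value. SNX11, a sorting nexin of endosomes, was at 5.85 CPM in high library 2 and between 10.7 and 13.3 CPM elsewhere. STX12, of recycling endosomes, was at 59 CPM in high library 2 and between 30.9 and 38.7 CPM elsewhere. At the other end, 80 of 119 records varied by less than 1.5-fold over all 6 libraries. The same share was not counted over all records.

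The deposited table leaves 6 further records of these families without a symbol, which a table of Ensembl names identifies. VPS13B had a log2 fold change of 0.41, AP3B1 0.40, a further AP2B1 record 0.37, VPS11 0.038, SEC22B -0.037 and COPE -0.30, with adjusted p between 0.197 and 0.910. The AP2B1 records can share reads.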
